A study of Mus musculus with 4 samples.

Results

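Hepcidin and the genes that carry, take up, store, export and sense iron were examined in mouse liver after knockout of Gdown1. The 10 genes are Hamp, Hamp2, Bmp6, Hfe, Tfr2, Trf, Tfrc, Slc40a1, Fth1 and Ftl1, chosen by name and each represented by 1 probe set of its own, out of 29432 genes measured. The study compared 2 groups of C57BL/6 mice aged 8 weeks, killed untreated around midday, each with 2 livers on 2 arrays. FF is the control and KO is the knockout of Gdown1, a polymerase II-binding protein encoded by Polr2m. In the header of the authors' deposited table the sides are named f/f and Alb-cre, and the albumin promoter that drives such a Cre is active in hepatocytes. Without a group that has Cre and keeps Gdown1, Cre and the deletion cannot be told apart.

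The liver sets the iron level of the whole body. Its hepatocytes secrete hepcidin, a peptide hormone that binds the iron exporter ferroportin and has it degraded, so that less iron leaves the gut, macrophages and the liver itself. Hepatocytes raise hepcidin when BMP6, released by the sinusoidal endothelium, activates SMAD proteins with the help of hemojuvelin, HFE and TFR2, and also when interleukin 6 activates STAT3. Mice carry a pair of hepcidin genes side by side, Hamp, which encodes the hormone, and Hamp2, whose product is not known to act on ferroportin.

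The upstream sequences of the hepcidin pair are shown because both genes lie together on chromosome 7 and both belong to the genes compared below. Each covers the 250 bases before the start site on the minus strand, 5′ to 3′, from RefSeq on GRCm38.p6, at chr7:30944030-30944279 for Hamp and chr7:30924182-30924431 for Hamp2. Capitals mark GGCGCC, the letters of the BMP response element known in the hepcidin promoter, and TTCNNNGAA, the letters of a STAT site.
Hamp: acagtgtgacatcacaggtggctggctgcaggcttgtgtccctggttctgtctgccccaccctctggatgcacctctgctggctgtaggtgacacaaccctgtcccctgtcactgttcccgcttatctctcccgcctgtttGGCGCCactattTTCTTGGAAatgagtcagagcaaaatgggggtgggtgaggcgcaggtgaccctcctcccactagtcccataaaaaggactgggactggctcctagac
Hamp2: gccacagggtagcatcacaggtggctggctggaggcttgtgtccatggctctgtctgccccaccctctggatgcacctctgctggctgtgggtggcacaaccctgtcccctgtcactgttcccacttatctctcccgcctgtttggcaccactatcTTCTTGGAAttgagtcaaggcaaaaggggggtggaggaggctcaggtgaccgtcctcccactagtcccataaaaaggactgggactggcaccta

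Of 247 aligned bases 227 were identical, or 91.9%, and 20 differed. The Hamp window held GGCGCC, with its first base 109 bases before the start site, and the Hamp2 window did not. The difference within these letters was G145A, with the base of Hamp first, its position counted from 1 at the 5′ end of the printed Hamp sequence, and the base of Hamp2 last. Both windows held TTCNNNGAA, which began 97 bases before the start site in Hamp and 94 bases before it in Hamp2. Both motifs read the same on either strand, and they did not overlap. Over all 32851 such upstream windows of RefSeq genes, 9.59% held GGCGCC and 7.02% held TTCNNNGAA. Windows were at hand for 8 of the 10 genes, 12 windows in all. GGCGCC was found in 2 of these genes, Hamp and Tfrc, and TTCNNNGAA in 2, Hamp and Hamp2. A match describes letters and is not evidence of binding.

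**Figure D1:**
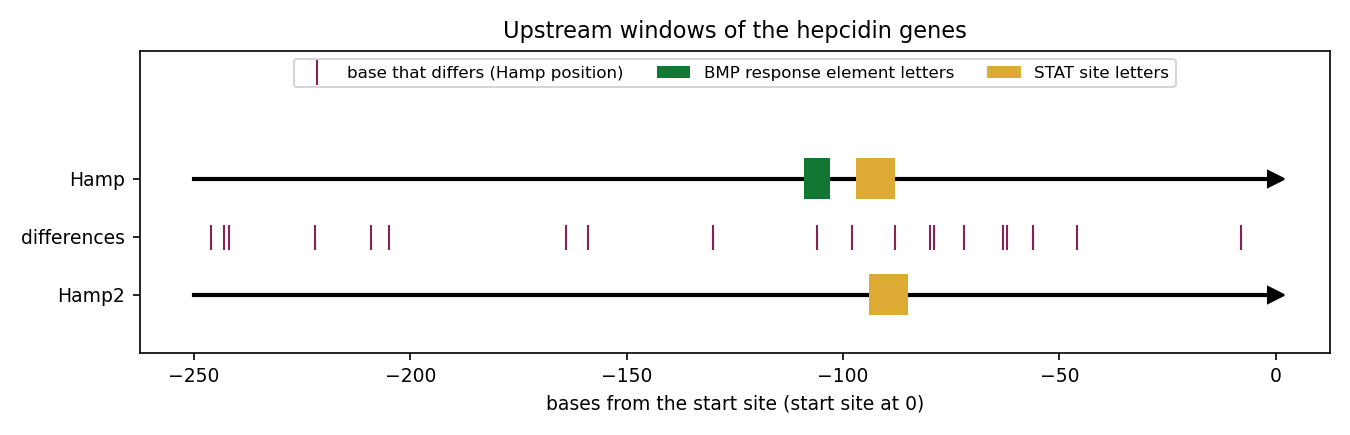
Map of the upstream windows of Hamp and Hamp2, with the distance in bases from the start site on the horizontal axis. Boxes mark the letters of the BMP response element and of the STAT site, and ticks mark the 20 bases that differ. Hamp carries both boxes and Hamp2 the STAT box alone.

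Levels are on the log2 scale, as the authors deposited them after RMA, a method that gives all arrays a common distribution. Levels of different probe sets are not compared, except that some are set against a level of olfactory receptor genes given below. Signals of marker genes are also summed within a list. The targeted gene Polr2m lay at 7.35 and 7.38 in FF and at 6.35 and 6.18 in KO (log2 change -1.10 ± 0.12, SE, limma adjusted p = 0.0215), so both KO arrays lay below both FF arrays. The call ended with the replicate number as a block (limma adjusted p = 0.104), with all probe sets tested (0.0859) and without any 1 array (0.163 to 0.343). Whole liver RNA was measured, so fewer cells of a type and less RNA per cell cannot be told apart. Hepatocyte markers were present on all arrays, with albumin (Alb) at 12.86 and 12.79 in FF and at 12.75 and 12.74 in KO. The FF replicates differed by a median of 0.15 over all genes, and so did the KO replicates.

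None of the 10 iron genes passed the test between KO and FF. Hamp2 had the largest difference, with a mean 1.46 higher in KO on the log2 scale, and the means of Hamp differed by -0.04. Bmp6 and Hfe also had higher means in KO, and Ftl1 and Tfr2 had lower ones. The limma adjusted p-values of the 10 genes ran from 0.103 for Ftl1 to 0.947 for Hamp, with 0 called in either direction. Of all genes tested 1.77% were called, 0.996% higher and 0.778% lower in KO. An unadjusted p under 0.05 was reached by 5 of the 10 genes, namely Hamp2, Bmp6 and Hfe with higher and Ftl1 and Tfr2 with lower means in KO. Of all genes 17% reached it, 9.38% with higher and 7.6% with lower KO means. The KO arrays both lay outside the FF range on the same side for 7 of the 10 genes, 4 higher and 3 lower. This held for 46.6% of all genes, 21.6% higher and 25% lower. With 2 arrays a group the test has little reach, and a difference that misses the threshold is not shown to be absent. The median log2 difference of the 10 was 0.03, and that of all genes -0.02.

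**Figure D2:**
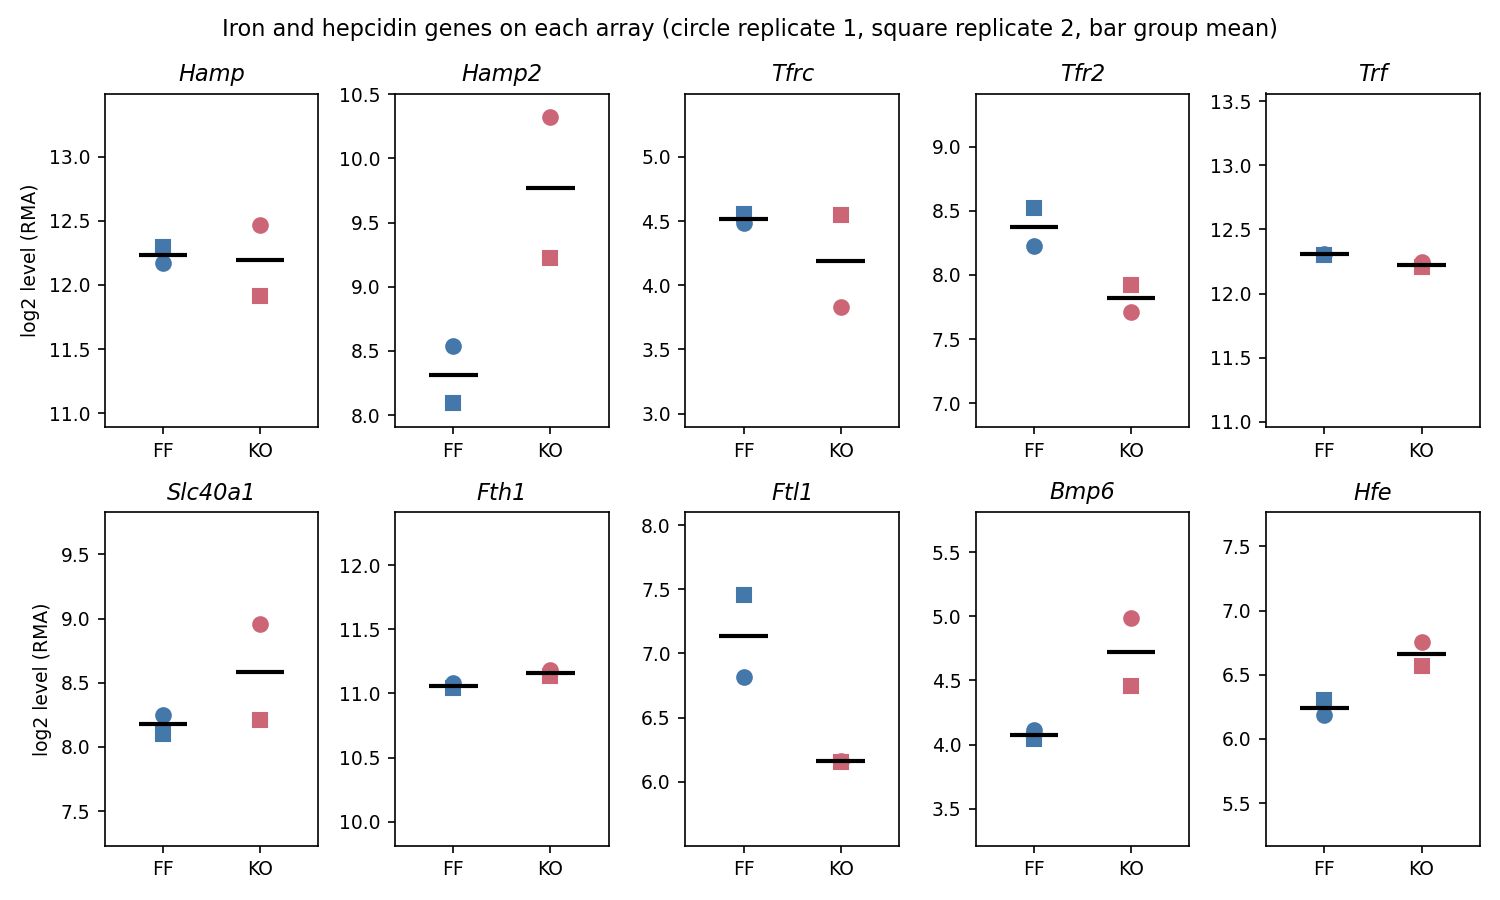
Log2 level of each gene on each array, FF in blue and KO in red, with circles for replicate 1, squares for replicate 2 and a bar at the group mean. All panels span the same log2 range; the 2 KO points of Hamp2 lie apart from each other and above both FF points, and the points of Trf and Fth1 nearly coincide.

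Hamp (chromosome 7 from 30942368 to 30944029, GRCm38.p6, as for all positions here) lay at 12.17 and 12.30 in FF and at 12.47 and 11.92 in KO. The KO arrays thus lay on either side of both FF arrays, and the groups overlapped. Group means were 12.24 ± 0.09 in FF and 12.19 ± 0.39 in KO (SD, n = 2 each). The log2 difference of -0.04 ± 0.20 (SE) had a 95% limma interval from -0.54 to 0.45, and its adjusted p was 0.947 (limma). Its sign depended on the arrays used: fits without 1 array gave -0.32 to 0.23, and the authors' deposited table gives a signed fold of 1.21, higher in KO.

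Hamp2 (chromosome 7 from 30922372 to 30924181) lay at 8.54 and 8.09 in FF and at 10.32 and 9.22 in KO. Both KO arrays were higher than both FF arrays, and they differed from each other by 1.10, more than any other of the 10 genes. The mean went from 8.32 ± 0.32 to 9.77 ± 0.77 (SD, n = 2 each), a 2.74-fold difference. On the log2 scale this was 1.46 ± 0.37 (SE), with a 95% interval from 0.55 to 2.36 and a limma adjusted p of 0.129 (unadjusted p = 0.00776). The difference was 0.91 without KO replicate 1 and 2.003 without KO replicate 2. In the authors' deposited table the signed fold was 4.06. The upstream windows of Hamp and Hamp2 were 91.9% identical, and their transcripts were not compared. Their probe sets may share transcripts, which was not tested. Whether the difference of Hamp2 departs from that of Hamp was not tested either.

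Bmp6 (chromosome 13 from 38345716 to 38500314), the endothelial ligand that drives hepcidin, lay at 4.11 and 4.04 in FF and at 4.98 and 4.46 in KO. Both KO arrays were higher, KO replicate 1 by more. The log2 difference was 0.64 ± 0.19 (SE) with a 95% interval from 0.17 to 1.12 and a limma adjusted p of 0.177. It was 0.38 without KO replicate 1 and 0.90 without KO replicate 2.

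Hfe (chromosome 13 from 23702034 to 23710854), which encodes an MHC class I-like protein that binds transferrin receptors and is needed for normal hepcidin expression, lay at 6.18 and 6.30 in FF and at 6.75 and 6.57 in KO. The groups did not overlap. The log2 difference was 0.42 ± 0.13 (SE) with a 95% interval from 0.10 to 0.74 and a limma adjusted p of 0.189. The authors' deposited table gives a smaller signed fold of 1.16.

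Tfr2 (chromosome 5 from 137569822 to 137588081), the hepatocyte receptor that senses iron-loaded transferrin, went the other way. It lay at 8.23 and 8.52 in FF and at 7.71 and 7.92 in KO, both KO arrays being lower. The log2 difference was -0.56 ± 0.15 (SE) with a 95% interval from -0.94 to -0.18 and a limma adjusted p of 0.155. The authors' deposited table gives a larger signed fold of -2.14.

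Trf (chromosome 9 from 103208876 to 103230286), which encodes transferrin, the iron carrier of plasma made by hepatocytes, hardly varied. It lay at 12.31 and 12.30 in FF and at 12.24 and 12.21 in KO. Both KO arrays were lower, by a mean of only 0.08 (95% interval from -0.36 to 0.20, limma adjusted p = 0.792).

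Tfrc (chromosome 16 from 32608896 to 32632794) encodes transferrin receptor 1, through which most cells take up iron, and its mRNA is stabilised by iron regulatory proteins when iron is scarce. It lay at 4.48 and 4.56 in FF and at 3.83 and 4.55 in KO. KO replicate 1 was low, while KO replicate 2 lay between the FF arrays. The log2 difference of -0.33 ± 0.24 (SE) had a limma adjusted p of 0.562, and it was 0.03 without KO replicate 1.

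Slc40a1 (chromosome 1 from 45908070 to 45926532) encodes ferroportin, the exporter that hepcidin removes, and is prominent in macrophages. It lay at 8.25 and 8.10 in FF and at 8.96 and 8.21 in KO. KO replicate 1 was high, and KO replicate 2 lay within the FF range. The log2 difference was 0.41 ± 0.25 (SE) with a limma adjusted p of 0.482, and it was 0.04 without KO replicate 1.

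The ferritin genes encode the heavy and light subunits of the shell that stores iron in cells, and the translation of both is blocked by iron regulatory proteins when iron is scarce. Fth1, the heavy chain (chromosome 19 from 9980600 to 9985111), lay at 11.08 and 11.04 in FF and at 11.19 and 11.13 in KO. Both KO arrays were higher, by a mean of 0.10 (95% interval from -0.18 to 0.38, limma adjusted p = 0.738).

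Ftl1, the light chain (chromosome 7 from 45457944 to 45459886), lay at 6.82 and 7.45 in FF and at 6.17 and 6.15 in KO. The KO arrays agreed closely and lay below both FF arrays, which differed from each other by 0.63. The log2 difference was -0.98 ± 0.22 (SE), or 1.97-fold as FF over KO, with a 95% interval from -1.51 to -0.44 and a limma adjusted p of 0.103. In the authors' deposited table its signed fold was -3.11. A further probe set is listed there for Ftl1 together with Ftl2-ps, Mir692-2 and Mir692-3 and was left out of the gene comparison. It lay at 11.26 and 11.29 in FF and at 11.10 and 10.74 in KO, a log2 difference of -0.35 with a limma adjusted p of 0.427 when all probe sets were tested. Both probe sets had lower values on both KO arrays, and the sizes differed. Ferritin light chain has pseudogene copies, so which transcripts each probe set reports is uncertain.

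**Figure D3:**
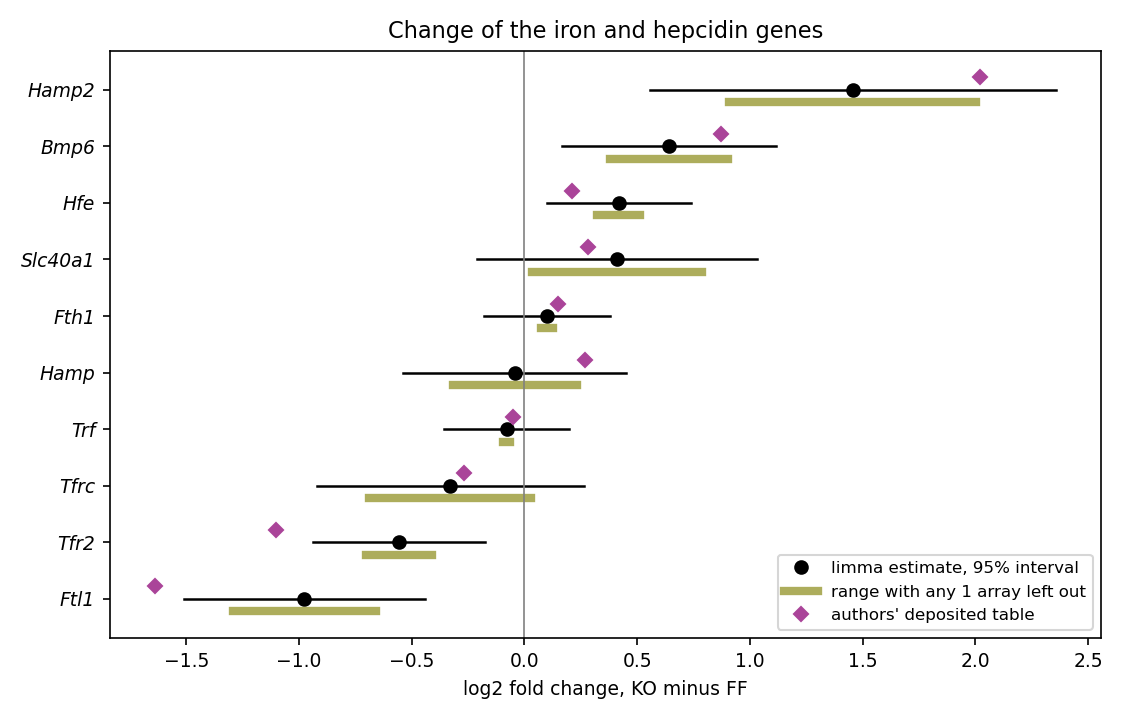
Log2 difference of KO minus FF for each gene. Black points with bars are limma estimates with 95% intervals, thick bars the range with any single array left out, and diamonds the values of the authors' deposited table. The intervals of 5 genes exclude 0 before adjustment over all genes, and Hamp lies at -0.04 by limma and at 0.27 in the authors' table.

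Other genes of the BMP and SMAD route to hepcidin were measured with 28 members. None passed the test, 0 higher and 0 lower in KO, with 8 higher and 4 lower at an unadjusted p under 0.05 by limma. Of all genes 9.38% were higher and 7.6% lower at that unadjusted p, shares that serve for the lists below as well. The median log2 difference of the 28 genes was 0.05. Id1 and Smad7, induced by BMP signalling, had the largest absolute differences. Id1 lay at 3.96 and 3.54 in FF and at 4.95 and 4.60 in KO (log2 difference 1.03 ± 0.20, SE, limma adjusted p = 0.0732). Its adjusted p was 0.0446 after median centring, 0.0474 with a robust variance trend and 0.0481 without the dimmer genes, but 0.104 with the replicate block, 0.171 with all probe sets tested and 0.222 to 0.382 without 1 array (limma). Smad7, an inhibitor of SMAD signalling, lay at 4.71 and 4.28 in FF and at 5.73 and 4.95 in KO, with a limma adjusted p of 0.217. The authors' deposited table gives it a log2 difference of -0.11, the opposite sign.

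The IL-6 and STAT3 route, including acute-phase genes that respond to it, had 22 measured members, of which 2 rose and 1 fell, where 0.996% of all genes rose and 0.778% fell. At an unadjusted p under 0.05 by limma 4 were higher and 3 lower in KO. The IL-6 receptor gene Il6ra fell, with a log2 change of -1.02 ± 0.13 (SE) and an adjusted p of 0.0311 (limma). It lay at 6.82 and 7.06 in FF and at 5.97 and 5.87 in KO. Lcn2, which encodes lipocalin 2, a protein that binds bacterial iron carriers, rose by 2.33 ± 0.26 (SE), limma adjusted p = 0.0213. It lay at 4.35 and 4.67 in FF and at 7.21 and 6.48 in KO, without overlap. Serpina3n, an acute-phase protease inhibitor, rose by 1.18 ± 0.13 (SE), limma adjusted p = 0.021. It lay at 10.67 and 10.89 in FF and at 11.95 and 11.96 in KO. The other 19 genes did not pass, and the list median was -0.05.

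Genes of cellular iron uptake, storage and control by iron regulatory proteins had 24 measured members, 0 called in either direction, with 1 higher and 4 lower at an unadjusted p under 0.05 by limma. Their median was -0.10. Slc25a37, or mitoferrin 1, which imports iron into mitochondria, had the largest absolute difference. It lay at 6.95 and 6.82 in FF and at 6.21 and 5.94 in KO (log2 difference -0.81 ± 0.14, SE, limma adjusted p = 0.0626). Its adjusted p lay from 0.0277 to 0.0496 with either variance trend, median centring, cyclic loess or the dimmer genes left out. It was 0.129 with the replicate block, 0.148 with all probe sets tested and 0.239 to 0.401 without 1 array (limma), and the authors' deposited table gives a log2 difference of -0.6.

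Of 22 measured genes of heme synthesis, breakdown and transport 1 fell and 0 rose, where 0.778% of all genes fell and 0.996% rose. Abcb10, a transporter of the inner mitochondrial membrane that is linked to heme synthesis in red cell precursors, fell, with a log2 change of -0.85 ± 0.12 (SE) and an adjusted p of 0.035 (limma). It lay at 6.28 and 6.17 in FF and at 5.40 and 5.35 in KO. The other 21 genes did not pass, 2 were higher and 3 lower at an unadjusted p under 0.05 by limma with Abcb10 counted, and the list median was 0.02. The calls of Abcb10, Il6ra, Lcn2 and Serpina3n each ended when all probe sets were tested (limma adjusted p from 0.0829 to 0.102), with the replicate number as a block (from 0.104 to 0.122) and without any 1 array.

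Of 21 measured genes of iron-sulfur cluster assembly 0 were called in either direction, with 4 higher and 2 lower at an unadjusted p under 0.05 by limma, and the median was 0.16. Glrx5, a mitochondrial glutaredoxin that passes on the clusters, had the largest difference. It lay at 7.45 and 7.62 in FF and at 8.15 and 8.27 in KO, a log2 difference of 0.68 ± 0.13 (SE, limma adjusted p = 0.072). Its adjusted p was 0.0449 with a variance trend, 0.0268 with a robust one and 0.0491 without the dimmer genes, but 0.15 with the replicate block, 0.158 with all probe sets tested and 0.279 to 0.396 without 1 array (limma). The authors' deposited table gives Glrx5 a log2 difference of 0.35. Nubp2, of the cytosolic assembly machinery, lay at 6.02 and 6.42 in FF and at 7.05 and 6.68 in KO, with a limma adjusted p of 0.181.

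**Figure D4:**
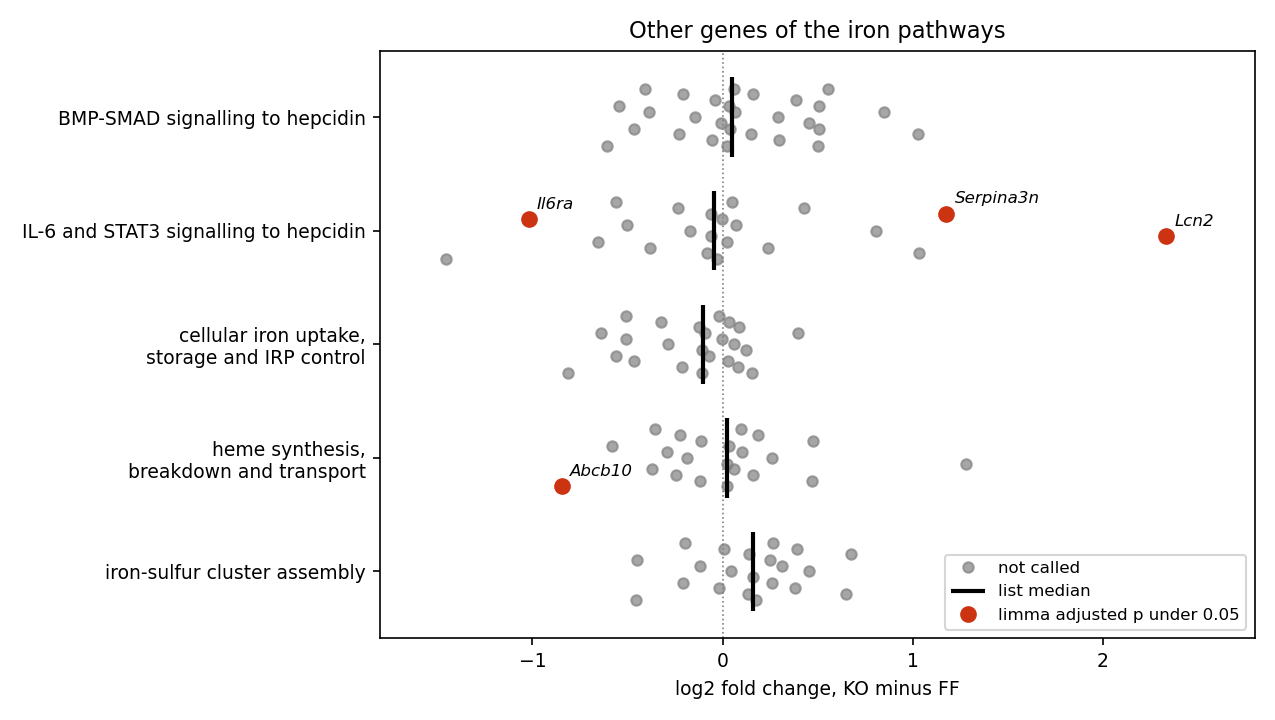
Log2 difference of KO minus FF for the other iron genes, 1 point a gene and 1 row a list, with the list median as a bar. Red points passed a limma adjusted p of 0.05; they are Il6ra and Abcb10, lower in KO, and Lcn2 and Serpina3n, higher in KO.

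Markers of liver cell types were compared between the groups too. All 12 Kupffer cell and macrophage markers were higher on both KO arrays than on both FF arrays, 0 of them called by limma and 8 at an unadjusted p under 0.05. Of all genes 21.6% were higher on both KO arrays and 9.38% were higher at that unadjusted p. Their summed signal, as log2, was 10.27 and 10.36 in FF and 11.37 and 10.74 in KO, and all 12 were higher on KO replicate 1 than on KO replicate 2. KO replicate 1 was also the higher of the 2 for 8 of 8 cholangiocyte, 10 of 11 stellate cell, 8 of 9 lymphocyte, 7 of 12 endothelial, 6 of 9 erythroid and 5 of 9 hepatocyte markers, and for 8 of the 10 iron genes, all but Tfrc and Tfr2. The part of macrophages in these values was not tested. The median macrophage marker difference from the FF mean was 0.97 on KO replicate 1 and 0.38 on KO replicate 2. Over all genes this median was -0.02 on either KO array. How many of all genes were higher on KO replicate 1 than on KO replicate 2 was not counted.

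Sinusoidal endothelial markers, which bear on Bmp6, had 0 of 12 genes called, 4 higher and 0 lower at an unadjusted p under 0.05, and a median of 0.20 (limma). Their summed log2 signal was 10.66 and 10.54 in FF and 10.84 and 10.74 in KO. Of 11 stellate cell markers 4 rose, Col3a1, Col1a1, Rgs5 and Reln (limma adjusted p from 0.00887 to 0.0319), where 0.996% of all genes rose. The summed log2 signal of the stellate cell markers was 10.63 and 10.47 in FF and 11.56 and 11.30 in KO. Of 8 cholangiocyte markers 1 rose, Tspan8 (limma adjusted p = 0.0261), and the summed log2 signal was 7.53 and 8.11 in FF and 9.27 and 8.85 in KO. Only 4 of these 8 lay above 2.82 in FF, the level under which 95% of 1127 olfactory receptor genes lay. These 5 calls ended when all probe sets were tested (limma adjusted p from 0.0555 to 0.0976), with the replicate block (from 0.0756 to 0.124) and without any 1 array. The part of these cells in the iron values was not tested.

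Erythroid markers, a list that includes Tfrc itself, had 0 of 9 genes called and 2 higher at an unadjusted p under 0.05 (limma). Their summed log2 signal was 9.18 and 9.17 in FF and 9.63 and 9.62 in KO. The list median was 0.19, with 6 means higher and 3 lower in KO. Of 9 hepatocyte markers 0 were called, 3 were lower at an unadjusted p under 0.05 (limma), and the median was -0.15. All 9 had lower means in KO, and 7 were lower on both KO arrays than on both FF arrays. That held for 25% of all genes. Of 9 lymphocyte markers 0 were called, 1 was higher at an unadjusted p under 0.05 (limma), and 4 lay above 2.82 in FF.

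**Figure D5:**
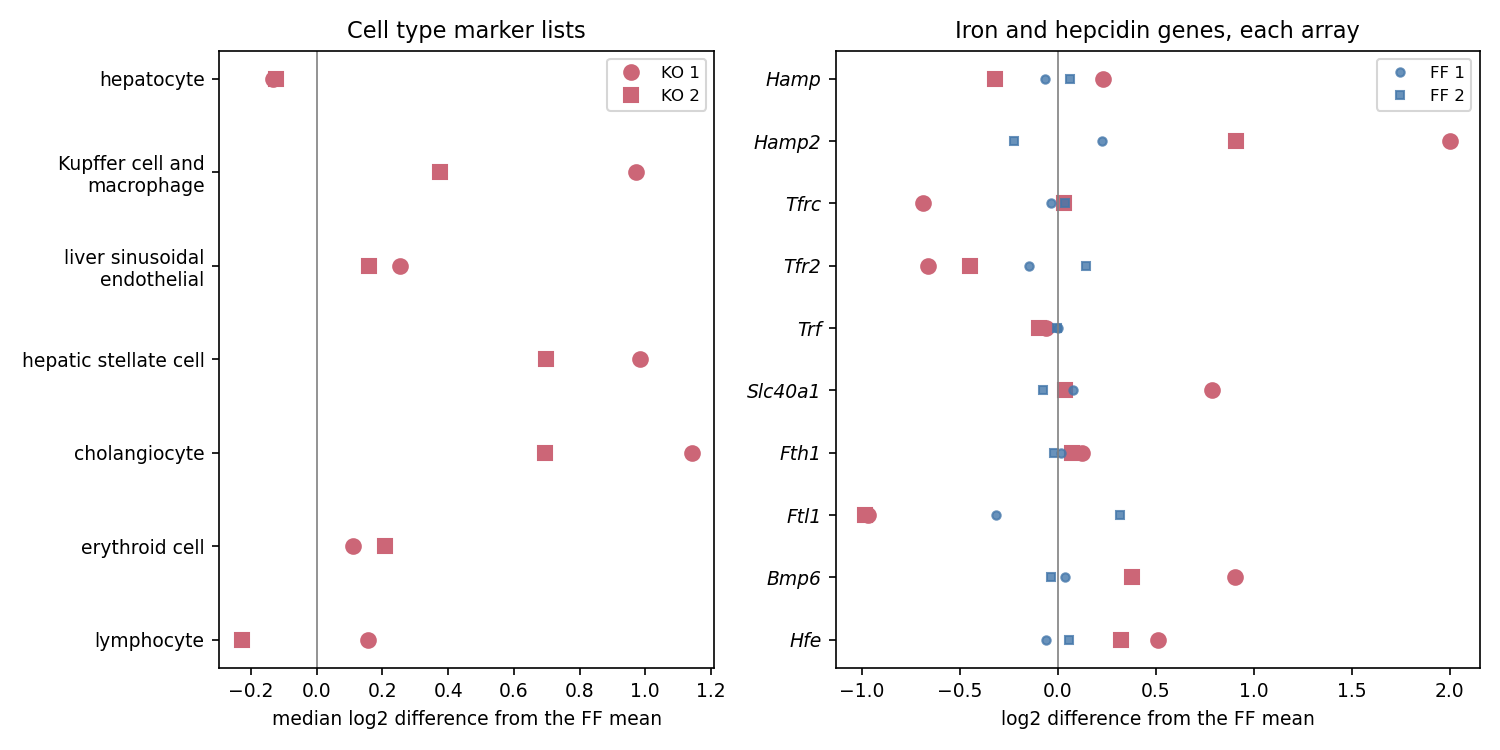
Left, median log2 difference of each cell type marker list from the FF mean on each KO array. Right, the same difference for each iron gene on each array. KO replicate 1 lies further from the FF mean than KO replicate 2 for 7 of the 10 genes. Its list median is 0.97 against 0.38 for macrophage, 0.98 against 0.70 for stellate cell, 1.14 against 0.69 for cholangiocyte and 0.26 against 0.16 for endothelial markers. The same median is 0.11 against 0.21 for erythroid, 0.16 against -0.23 for lymphocyte and -0.13 against -0.12 for hepatocyte markers.

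The hepcidin pair has close neighbours on chromosome 7, named here by position after the data were seen. Usf2, the gene next to Hamp (from 30945248 to 30956951), encodes a transcription factor. It lay at 5.58 and 5.67 in FF and at 5.44 and 5.29 in KO (limma adjusted p = 0.373). Lsr, a lipoprotein receptor gene from 30957770 to 30973469, lay at 7.53 and 7.78 in FF and at 8.60 and 8.35 in KO (limma adjusted p = 0.0692). Fam187b, further on, lay at 2.56 and 3.12 in FF and at 3.60 and 3.97 in KO (limma adjusted p = 0.12). Its FF mean of 2.84 was close to 2.82, the level under which 95% of olfactory receptor genes lay. Its KO mean of 3.78 was above that level. Both Lsr and Fam187b were higher on both KO arrays than on both FF arrays, as Hamp2 was, and neither passed. Usf2 was lower on both KO arrays. On the other side of the pair Mag, Cd22 and Ffar1 had means near the olfactory receptor level and limma adjusted p-values of 0.808, 0.414 and 0.382. Cd22 was higher, and Mag and Ffar1 were lower, on both KO arrays than on both FF arrays. The KO arrays both lay above the FF range for 21.6% of all genes and below it for 25%.

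Genes whose values over the 4 arrays lay closest to those of Hamp, after each gene was centred on its own mean, were Vasp, Impg2 and Ranbp17, at Euclidean distances of 0.03 log2 units each. Ranbp17 had means of 2.09 in FF and 2.07 in KO, under the olfactory receptor level of 2.82. Impg2, with means of 2.97 in FF and 2.93 in KO, lay close to that level. Closest to Tfrc were Hs3st3a1, F9 and Prkaa2, at distances of 0.09 each. So few arrays leave many genes with like profiles, and the distances describe these arrays only.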

How the data were processed

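Liver RNA of 4 mice was measured on MoGene 2.0 ST arrays, per the file headers. The deposited log2 values are, per the submitters' processing notes, RMA output of Affymetrix Expression Console (version not named). The authors' deposited table gives log2 averages and a signed linear fold change, here called a score, per the file headers; its making is not described in the sources used here. Its symbols were joined to the values by probe-set ID. Of 41345 probe sets, 29945 carried 1 symbol, giving 29432 genes, and the brightest probe set was kept for the 381 genes with several.

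KO was compared with FF by limma 3.58.1 in R 4.3.3, 2-sided and without a block, with Benjamini-Hochberg adjustment over all genes and calls at 0.05. The test had 5.79 degrees of freedom, 3.79 of them prior, and was checked on simulated data. The labels call the samples biological replicates and name no batch. The members and lists (5 pathway lists, 7 marker lists) were chosen with earlier results of these data known. Named genes are the members, Polr2m, called list genes or, where a list had none, the 2 largest differences, and the nearest profiles. A gene that this rule names is not reported here. Alternatives were the replicate block, variance trends, median centring, cyclic loess, leaving out dim genes or each array, averaging or testing all probe sets, the authors' table and, added after seeing the data, the shared Ftl1 probe set. The number of arrays limits the precision.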

Additional observations from a re-analysis of the deposited data

How the results depend on the processing

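The count of 0 called iron genes was the same under every alternative fit run, from the replicate block to the fits without 1 array; the smallest adjusted p among the 10 was 0.0505, for Ftl1 with a robust variance trend. Over all genes the 522 calls became 30 with the replicate block, 42 with all probe sets tested, 850 without the dimmer 50% of genes and 975 with a robust variance trend. The 4 called pathway genes became 0 with the block and with all probe sets, 7 without the dimmer genes and 8 with the robust trend. Without any 1 array both counts were 0 (unadjusted p-values under 0.05 numbered 3364 to 3958); a lone array is then assumed to vary like the other group. The replicate numbers are not known to pair the mice: deviations of same-numbered arrays correlated at -0.01.

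Signs turned as follows, and the cause was not tested. Hamp was at 0.0232 with cyclic loess and 0.27 in the authors' table, and from -0.32 to 0.23 without 1 array. Tfrc ran from -0.69 to 0.0297 without 1 array. Smad7 was at -0.11 and Hs3st3a1 at 0.6 in the authors' table. Vasp was at 0.21 there and from -0.35 to 0.20 without 1 array, Impg2 at 0 and from -0.32 to 0.23. Ranbp17 was at 0.08 there, at 0.0268 with cyclic loess and from -0.32 to 0.27 without 1 array.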
